A study of Homo sapiens with 4 samples.

Results

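Cohesin is the ring-shaped complex that holds sister chromatids together and folds chromosomes into loops. The 10 genes described here encode its subunits and regulators, namely SMC1A, SMC3, RAD21, STAG1, STAG2, NIPBL, WAPL, PDS5A, PDS5B and ESCO1. They were taken by name from a fixed list, out of 57820 genes in the count files, and each of them was among the 16468 genes with enough counts to be tested. They were chosen by their measured change in the same comparison, with the log2 fold change of STAG1 and its relation to STAG2 and to gene span in view. The values of the 10 genes are therefore given as a description, with their errors. Where members are said to be called, this describes their place in the fit over all genes and is no separate test of them.

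SY5Y is an established human neuroblastoma cell line, and the labels give its genotype as MYCN wild type. RNA was collected 12 h after treatment with SGSS05-NS at 3 μM or with the solvent DMSO. SGSS05-NS is an inhibitor of the histone H4 lysine methyltransferase SETD8. The study reports that compounds of its series, SGSS05-NS among them, also inhibited other lysine and arginine methyltransferases at low micromolar concentrations. There were 2 libraries per treatment and 4 in all, and the study describes its replicates as independent. The study names the compound SGSS05-NS3. Its methods give a lower dose for SY5Y cells, while several of its figure legends give the dose of the labels. One legend describes RNA sequencing of SY5Y cells at both doses. All 4 libraries come from 1 cell line, without a second line or an inactive compound in these files.

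The ring of cohesin is built from the ATPases SMC1A and SMC3 and is closed by the kleisin RAD21. One of the STAG proteins, STAG1 or STAG2, binds RAD21 and is needed for a stable hold on chromatin. NIPBL loads cohesin and drives loop extrusion, WAPL releases cohesin from DNA with the help of PDS5A or PDS5B, and ESCO1 acetylates SMC3, which counteracts release. STAG2 is lost by mutation in several cancers, and cells without STAG2 depend on STAG1.

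The 4 members called lower, as described further on, form 2 pairs of related genes, STAG1 with STAG2 and PDS5A with PDS5B, and the sequences at their starts are shown so that the pairs can be compared. The start sites and sequences are those of RefSeq (GRCh38.p14). Windows were taken for 8 of the 10 members, and each sequence was located by exact match on GRCh37, the build of the count files. Shown are 200 bases, from 250 to 51 bases before the start, 5′ to 3′, with matches on either strand to CCAAT, the box bound by NF-Y, and to GGGCGG, the box bound by Sp1, in capitals.
STAG1 (chr3:136471271-136471470, minus strand): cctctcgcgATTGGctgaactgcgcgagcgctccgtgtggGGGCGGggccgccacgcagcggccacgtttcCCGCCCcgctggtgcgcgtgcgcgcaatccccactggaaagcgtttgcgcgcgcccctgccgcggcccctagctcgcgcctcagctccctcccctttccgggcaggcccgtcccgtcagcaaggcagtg
STAG2 (chrX:123094160-123094359, plus strand, the first of 3 starts, 1146 bases before that of the canonical transcript): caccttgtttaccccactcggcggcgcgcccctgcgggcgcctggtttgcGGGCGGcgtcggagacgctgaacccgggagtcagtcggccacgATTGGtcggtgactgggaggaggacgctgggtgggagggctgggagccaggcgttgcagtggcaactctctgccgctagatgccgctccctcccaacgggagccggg
PDS5A (chr4:39979582-39979781, minus strand): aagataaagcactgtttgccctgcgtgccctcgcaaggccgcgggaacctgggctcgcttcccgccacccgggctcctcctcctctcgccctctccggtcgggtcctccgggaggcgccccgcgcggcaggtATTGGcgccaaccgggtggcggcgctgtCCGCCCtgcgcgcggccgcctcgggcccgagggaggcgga
PDS5B (chr13:33160339-33160538, plus strand): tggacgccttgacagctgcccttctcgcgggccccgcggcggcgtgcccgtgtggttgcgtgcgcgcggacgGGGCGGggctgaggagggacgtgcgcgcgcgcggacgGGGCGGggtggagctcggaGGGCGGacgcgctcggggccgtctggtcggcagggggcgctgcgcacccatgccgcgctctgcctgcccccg

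The 4 windows held 28 CpG dinucleotides for STAG1, 21 for STAG2, 27 for PDS5A and 34 for PDS5B, against a median of 8 over 35116 RefSeq promoter windows of the same length. Each held at least 1 GGGCGG match, which 35.0% of all windows held. A CCAAT match was present in the windows of STAG1, STAG2 and PDS5A and in 27.4% of all windows. The windows of the other STAG2 starts, which lie nearer to the canonical one, held 10 and 13 CpG dinucleotides, and the first of them held no CCAAT match. Among members not called, the windows of WAPL and NIPBL held 30 and 23 CpG dinucleotides, those of SMC1A 16 and 11, and that of SMC3 9. A GGGCGG match was present for SMC1A and NIPBL but not for WAPL or SMC3, and of these genes only WAPL had a CCAAT match. No window of the 8 members held TATAAA (7.6% of all windows) or the p53 half-site (4.5% of all windows). The half-site was searched by its usual 10-letter consensus on both strands. Windows of RAD21 and ESCO1 were not examined.

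With SGSS05-NS, the fitted log2 fold change was below 0 for all 10 cohesin genes, with a median of -0.44, while 49.0% of all genes tested were below 0 and their median was 0.01. The values ran from -1.33 for STAG1 to -0.03 for ESCO1. At an adjusted p-value under 0.001, the threshold of the study, 4 of the 10 were called lower by edgeR's quasi-likelihood test (STAG1, PDS5B, STAG2 and PDS5A), against 8.14% of all genes tested. With edgeR's likelihood ratio test or DESeq2, 5 were called lower, SMC1A in addition, and with limma voom 4. None was called higher (0 also at an unadjusted p under 0.05, with edgeR's likelihood ratio test, with DESeq2 and with limma voom), against 6.37% of all genes (14.5% in either direction). At an adjusted p under 0.05, the counts were 6 lower and 0 higher, against 23.7% and 22.6% of all genes. In 8 of the 10, both treated libraries were below both DMSO libraries, an order that 36.9% of all genes showed. In a bulk library, fewer cells with a transcript and less transcript per cell cannot be told apart.

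**Figure D1:**
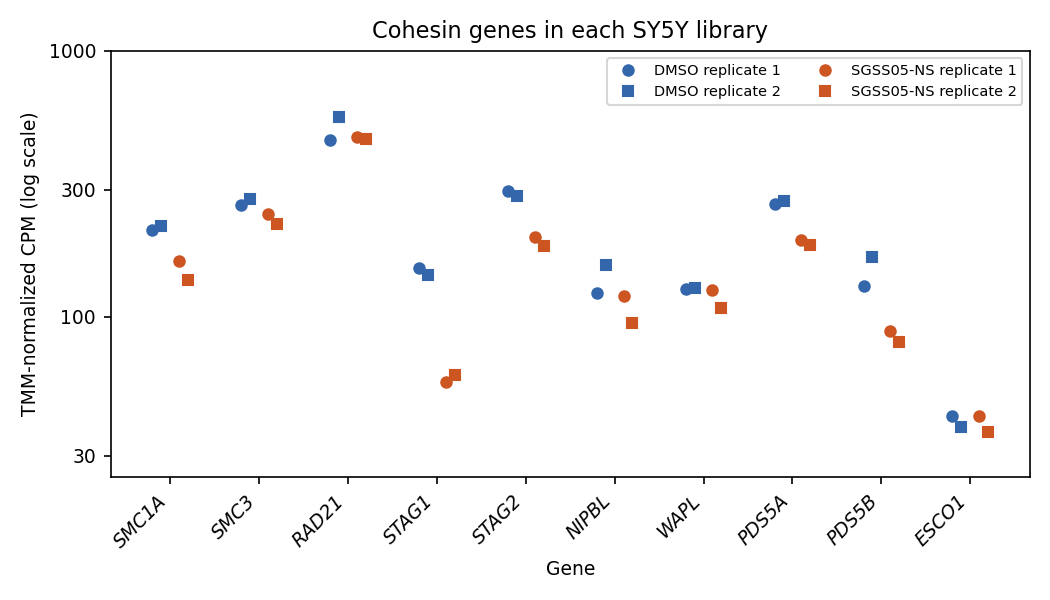
Level of each cohesin gene in each of the 4 SY5Y libraries, as TMM-normalized CPM on a log axis, with DMSO in blue and SGSS05-NS in orange. The treated points of STAG1 (57.0 and 60.2 CPM) lie far below its DMSO points (152 and 144 CPM), whereas those of RAD21 and ESCO1 overlap with DMSO.

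STAG1 (ENSG00000118007.8) occupies positions 136055078 to 136471245 of chromosome 3 (GRCh37, minus strand). Its level under DMSO was 152 and 144 CPM, that is, counts scaled to library totals with edgeR's TMM factors, and under SGSS05-NS 57.0 and 60.2 CPM. Both treated libraries were well below both controls, and replicates differed little. The treated mean, 58.6 ± 2.27 CPM (SD, n = 2), was 39.6% of the DMSO mean of 148 ± 5.79 CPM (SD, n = 2). Its log2 fold change of -1.33 (standard error 0.09) was the lowest of the 10, and 787 of the genes tested had a lower one. When libraries were left out singly, it stayed between -1.39 and -1.30.

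STAG2 (ENSG00000101972.14) is on the plus strand of chromosome X, at 123094062 to 123556514. It stood at 297 and 283 CPM with DMSO and at 200 and 185 CPM with SGSS05-NS. The groups did not overlap here either, but the treated mean was 66.4% of the control, and the log2 fold change was -0.59 (standard error 0.09), between -0.66 and -0.54 with single libraries left out. The log2 fold change of STAG1 was thus 0.74 below that of STAG2, written as a difference of -0.74. Within a library, the log2 ratio of STAG1 counts to STAG2 counts was -0.96 and -0.98 with DMSO and -1.81 and -1.62 with SGSS05-NS, so the shift was larger than the spread between replicates. The difference stayed between -0.84 and -0.65 with single libraries left out and between -0.75 and -0.70 under the other tests, scalings and filters. Since the pair was chosen for this difference, no test is given for it.

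The share of STAG1 in the sum of STAG1 and STAG2 was computed from counts divided by the length of all annotated exons of each gene. It was 51.1% and 50.9% under DMSO and 36.8% and 39.9% under SGSS05-NS, or 51.0% ± 0.159 and 38.3% ± 2.22 (SD, n = 2). The level of the share depends on the length used, since the exons of STAG2 add up to 16.0 kb over all isoforms but to 6.18 kb in the canonical transcript (7.84 and 6.06 kb for STAG1). With canonical transcripts, the share was 34.2% ± 0.143 with DMSO and 23.7% ± 1.70 with SGSS05-NS. The direction was the same with both lengths. The sum of STAG1 and STAG2 per kb of canonical transcript was 71.4 ± 2.49 CPM with DMSO and 40.8 ± 1.35 CPM with SGSS05-NS, 57.2% of the control, and 52.8% per kb of all exons.

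**Figure D2:**
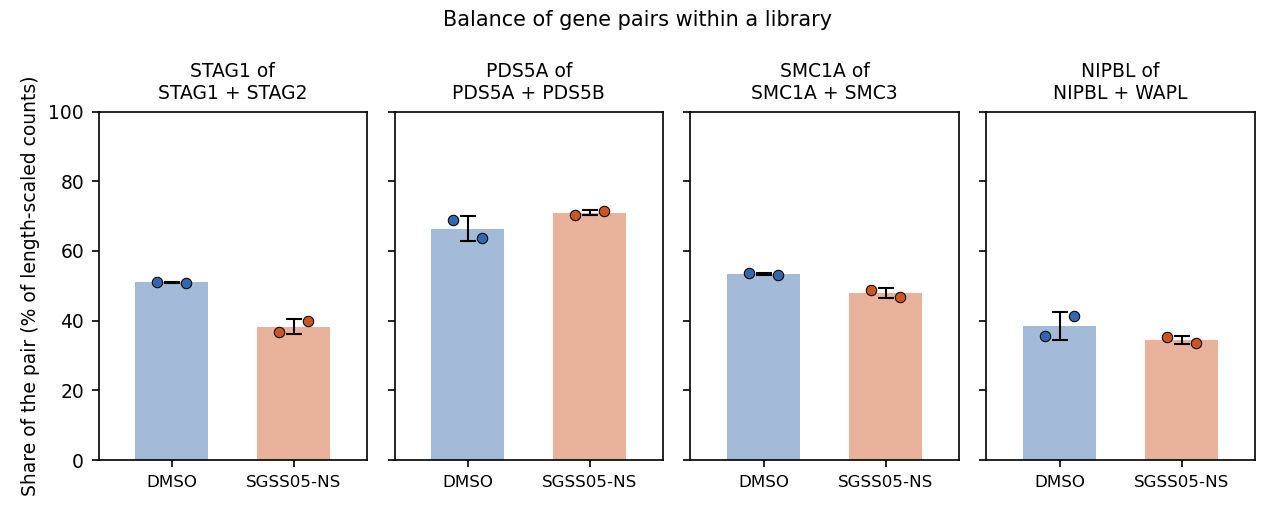
Share of the first gene in each pair, in percent of the summed counts per kb of all annotated exons, with bars for the mean of 2 libraries, error bars for the SD and points for single libraries. STAG1 goes from 51.0% to 38.3% of its pair, a wider gap than in the other pairs shown.

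Of the other ring subunits, SMC1A (ENSG00000072501.13, chromosome X from 53401070 to 53449677, minus strand) showed the largest difference. It was at 212 and 220 CPM with DMSO and at 162 and 137 CPM with SGSS05-NS. Its treated mean was 69.3% of the control (log2 fold change -0.53, standard error 0.10), and it was the member nearest to the threshold among those not called. SMC3 (ENSG00000108055.9, chromosome 10 from 112327442 to 112365806, plus strand), the partner of SMC1A, was at 263 and 277 CPM with DMSO and at 243 and 224 CPM with SGSS05-NS, and its log2 fold change was -0.21 (standard error 0.09). The treated libraries of both genes were below the controls, by a smaller margin for SMC3. RAD21 (ENSG00000164754.8, chromosome 8 from 117858173 to 117887015, minus strand) was at 461 and 561 CPM with DMSO and at 473 and 465 CPM with SGSS05-NS. These groups overlapped, with a log2 fold change of -0.12 (standard error 0.11) that ranged from -0.27 to 0.01 with single libraries left out. The share of SMC1A in the sum of SMC1A and SMC3 was 53.4% ± 0.307 with DMSO and 47.8% ± 1.44 with SGSS05-NS per kb of all exons.

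Among the genes that release cohesin, the PDS5 genes were lower while WAPL differed little. PDS5B (ENSG00000083642.14, chromosome 13 from 33160589 to 33352157, plus strand) was at 130 and 168 CPM with DMSO and at 88.6 and 80.3 CPM with SGSS05-NS. The DMSO libraries of PDS5B were far apart, yet both treated libraries were below them. Its treated mean was 56.7% of the control, with a log2 fold change of -0.82 (standard error 0.12), the second lowest of the 10, and at most -0.64 with single libraries left out. PDS5A (ENSG00000121892.10, chromosome 4 from 39824483 to 39979576, minus strand) was at 267 and 273 CPM with DMSO and at 195 and 187 CPM with SGSS05-NS, with close replicates. Its treated mean was 70.8% of the control (log2 fold change -0.50, standard error 0.09), and it was the called member nearest to the threshold. WAPL (ENSG00000062650.13, named WAPAL in older annotations, chromosome 10 from 88195013 to 88281549, minus strand) was at 128 CPM in both DMSO libraries and at 126 and 108 CPM with SGSS05-NS. The first treated library of WAPL was almost at the control level, and the log2 fold change was -0.13 (standard error 0.10). Unlike STAG1 within its pair, the share of PDS5A was 66.3% ± 3.60 with DMSO and 71.0% ± 0.793 with SGSS05-NS, a gap close to the spread between the DMSO libraries.

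NIPBL (ENSG00000164190.12, chromosome 5 from 36876871 to 37066515, plus strand), the loader, was at 123 and 156 CPM with DMSO and at 119 and 94.8 CPM with SGSS05-NS. Its replicates were far apart under both treatments, and its standard error was the largest of the 10, while the first library of each treatment differed by little. The log2 fold change of NIPBL was -0.38 (standard error 0.13), and it ranged from -0.56 to -0.21 with single libraries left out. ESCO1 (ENSG00000141446.6, chromosome 18 from 19109245 to 19180845, minus strand) was at 42.3 and 38.4 CPM with DMSO and at 42.3 and 37.03 CPM with SGSS05-NS. The groups of ESCO1 overlapped, and its log2 fold change of -0.03 (standard error 0.11) was above 0 in some of the alternatives tried.

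The number of members called depended on single libraries near the threshold. The fits below reuse the libraries in which the members were chosen, so they describe this dependence and are no further support for the members. STAG1, STAG2 and PDS5B were called with any 1 library left out, where the arm with 1 library is assumed to vary like the other. PDS5A was not called without DMSO replicate 2 or without SGSS05-NS replicate 2. SMC1A was called without DMSO replicate 1, without DMSO replicate 2 or without SGSS05-NS replicate 1, and NIPBL without DMSO replicate 1. The count of members called lower ranged from 3 to 6 in these fits. With scaling by library size only, 2 members (STAG1 and PDS5B) were called.

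Levels of different genes were compared per kb of length. With DMSO, RAD21 had the highest level, 35.6 ± 4.92 CPM per kb of all exons (SD, n = 2), and ESCO1 the lowest, 7.64 ± 0.515. In between, the ranges of STAG1 and STAG2, of STAG2 and WAPL, and of WAPL and SMC3 overlapped, around 17.4 to 18.9 CPM per kb, and so did those of PDS5B and NIPBL at 11.3 and 11.1 CPM per kb. Per kb of canonical transcript, RAD21 and ESCO1 kept these places, but SMC3 (48.9) and STAG2 (46.9) took the next places, so the order of the middle genes depends on which isoforms are counted. STAG1 had rank 4 of the 10 genes per kb of all exons with DMSO and rank 9 with SGSS05-NS, and ranks 5 and 9 per kb of canonical transcript. With SGSS05-NS its range overlapped that of ESCO1 per kb of all exons, at 7.48 and 7.50 CPM per kb.

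**Figure D3:**
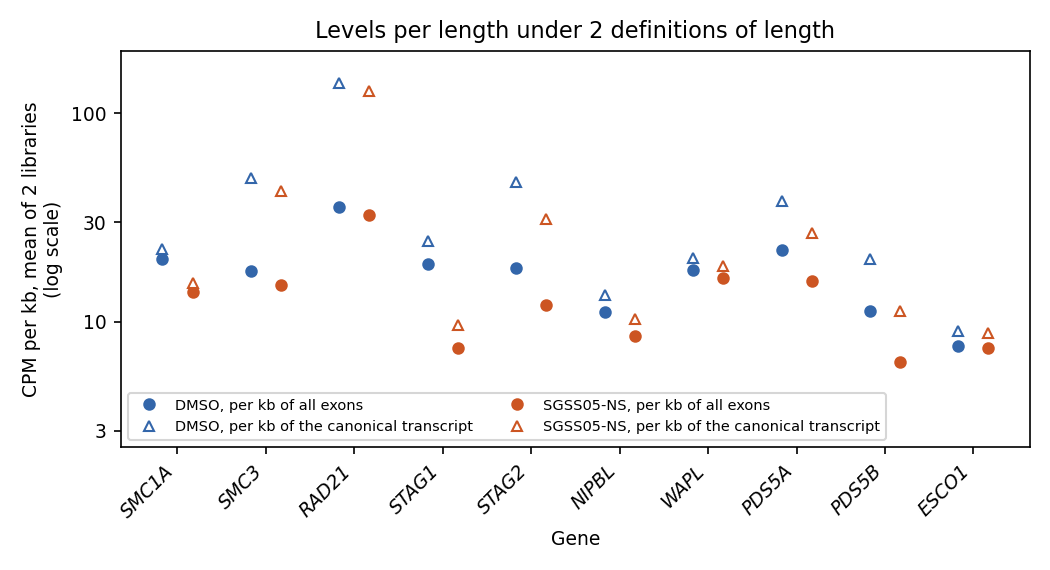
Mean level of each cohesin gene in CPM per kb on a log axis, with circles for the length of all annotated exons, triangles for the canonical transcript, DMSO in blue and SGSS05-NS in orange. RAD21 is the highest (35.6 and 140 CPM per kb with DMSO) and ESCO1 the lowest with DMSO (7.64 and 8.99) under both lengths.

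Gene span, the distance from the first to the last annotated base of a gene with introns included, was compared with the log2 fold change, as cohesin genes differ widely in it. STAG1 spans 416 kb, and RAD21 spans 28.8 kb. Over the 10 members, Spearman's rho between span and log2 fold change was -0.73, and over 16042 genes tested with a known span it was -0.22. Both are descriptions across genes of the same 4 libraries, which are not independent replicates. Of the 5 members that span 100 kb or more (STAG1, STAG2, NIPBL, PDS5A and PDS5B), 4 were called lower, and of the 5 shorter members 0, although SMC1A, of 48.6 kb, was called with the likelihood ratio test, with DESeq2 and in some other alternatives. Among all genes tested, 27.8% of those of 100 kb or more and 3.91% of the shorter ones were called lower. With the length of the longest transcript in place of the span, rho was -0.14 for the members and -0.07 for all genes.

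Genes were placed in classes of span, and each member was set beside the genes of its class. The median log2 fold change of all genes tested was 0.10 under 10 kb, 0.17 from 10 to 30 kb, 0.02 from 30 to 100 kb, -0.33 from 100 to 300 kb and -1.03 over 300 kb. The shares called lower in these classes were 5.86%, 1.69%, 3.78%, 20.5% and 53.8%, and the longest class held 621 genes. STAG1 was 0.30 below the median of this class, and 30.9% of the class had a lower log2 fold change, so the value of STAG1 lay inside the range of genes of its span. PDS5B was 0.49 below the median of its class of 100 to 300 kb, and 13.8% of 2212 genes were lower. PDS5A and NIPBL were 0.17 and 0.05 below that median. SMC1A, of 48.6 kb, was 0.54 below the median of its class, the largest gap of the 10, and 7.85% of 4523 genes were lower. SMC3, RAD21 and WAPL were 0.23, 0.30 and 0.14 below, and ESCO1 0.04 below.

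For STAG2 the comparison depends on the annotation. The annotated gene spans 462 kb and runs far downstream of the canonical transcript, which spans 141 kb, from 123095556 to 123236506. By the gene span, STAG2 was 0.44 above the median of genes over 300 kb, and 26.6% of them were higher. By the canonical transcript, it was 0.19 below the median of -0.40 for genes of 100 to 300 kb. The span of STAG1 is the same by both measures. Among the tested genes nearest in span to STAG1 were FSTL4 (log2 fold change -1.96) and DIP2C (-1.24), with adjusted p-values (Benjamini-Hochberg, edgeR's quasi-likelihood test) of 1.8e-05 and 3.8e-06. Those nearest to STAG2 by gene span were PHEX (-0.10, adjusted p = 0.85 from edgeR), ATXN1 (-1.18, adjusted p = 0.0045) and THSD7A (-1.97, adjusted p = 3.9e-07). PHEX and ATXN1 had under 3 CPM. Nearest by canonical transcript were CACNA2D2 (-0.99, adjusted p = 1e-05 from edgeR), MMS22L (-0.40, adjusted p = 0.015) and NCOA7 (-0.32, adjusted p = 0.037).

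**Figure D4:**
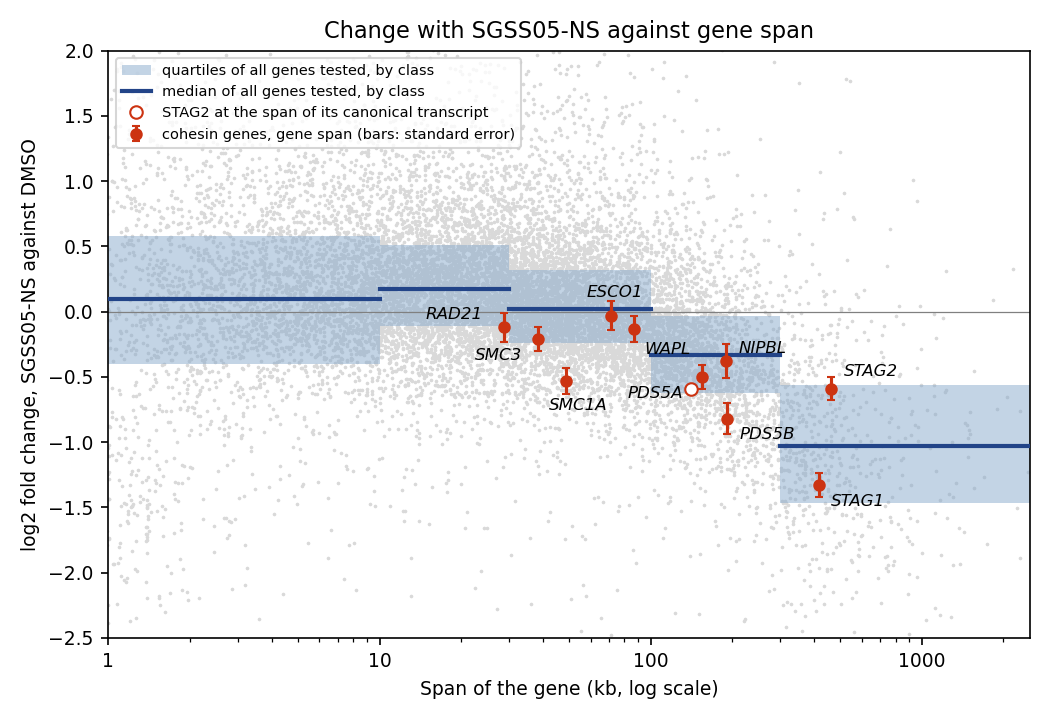
Log2 fold change with SGSS05-NS against gene span in kb (log axis), with each gene tested as a grey point, blue lines and bands for the median and quartiles of all genes in each span class, and the cohesin genes in red with their standard errors. STAG1 (416 kb, -1.33) lies inside the band of genes over 300 kb. STAG2 (-0.59) also lies inside that band at its gene span of 462 kb, near the upper edge of -0.56. At the 141 kb of its canonical transcript (open circle), STAG2 lies inside the band of 100 to 300 kb, near the lower edge of -0.62. All bands are by gene span. Points outside the axes are not drawn.

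The counts were taken by strand, which matters for STAG1 and RAD21. The exons of STAG1 share 1661 bases with those of PCCB on the other strand, and counts without regard to strand were 82.0% to 85.6% of the stranded ones for STAG1 and 89.2% to 89.8% for RAD21, which overlaps UTP23 and RAD21-AS1. For the other 8 members they were within 1% of the stranded counts. Without regard to strand, the share of STAG1 was 46.1% with DMSO and 34.6% with SGSS05-NS. Fragments antisense to STAG1 numbered 35 and 53 with DMSO and 38 and 37 with SGSS05-NS. They did not separate the treatments, while the sense counts were 3815 and 3361 against 1266 and 1417.

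Other genes of the cohesin cycle were taken from a list of 18, of which 16 were tested, and 10 of these had a log2 fold change below 0. By edgeR's quasi-likelihood test at an adjusted p under 0.001, 2 fell and 0 rose (5 higher at an unadjusted p under 0.05, 1 with the likelihood ratio test, 1 with DESeq2 and 0 with limma voom), against 8.14% of all genes lower and 6.37% higher, and the median log2 fold change was -0.15. CTCF, the DNA-binding protein that stops cohesin at loop anchors, fell from 128 ± 1.76 CPM (SD, n = 2) to 80.2 ± 8.30 CPM, with a log2 fold change of -0.68 ± 0.10 (SE) and an adjusted p of 0.00022 by edgeR. HDAC8, which deacetylates SMC3, fell from 27.2 ± 3.24 to 14.7 ± 1.59 CPM, with a log2 fold change of -0.88 ± 0.13 (SE) and an adjusted p of 0.00024 by edgeR. CTCF spans 76.7 kb and HDAC8 244 kb. HASPIN, a kinase of histone H3 in mitosis, had a log2 fold change of 0.58 (adjusted p = 0.0011 from edgeR).

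The remaining cohesin genes did not pass the threshold. MAU2, the partner of NIPBL, had a log2 fold change of 0.24 (adjusted p = 0.046 from edgeR), against -0.38 for NIPBL. ESCO2, which acetylates SMC3 in S phase, had -0.11 (adjusted p = 0.37 from edgeR). CDCA5, the gene of sororin, had 0.27 (adjusted p = 0.028 from edgeR), and SGO1, which protects cohesin at centromeres, had 0.00. ESPL1, the gene of separase, had -0.48 (adjusted p = 0.010 from edgeR). Of the subunits of meiotic cohesin, SMC1B had 0 fragments in every library, RAD21L1 had between 4 and 9, and STAG3 counts were 6 and 7 under DMSO and 12 and 24 under SGSS05-NS. REC8 was present at 92.9 ± 4.13 CPM with DMSO and at 79.8 ± 6.19 CPM with SGSS05-NS.

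The complexes most like cohesin are condensin, which compacts chromosomes in mitosis, and SMC5/6, which acts in DNA repair. Of 8 condensin genes, 1 fell and 0 rose (0 higher at an unadjusted p under 0.05 and with each other tool), against the same shares of all genes, with a median log2 fold change of -0.39. With the likelihood ratio test or DESeq2, 4 were called lower, NCAPD3 and NCAPG2 among them, and with limma voom 1. NCAPH, a kleisin like RAD21, fell from 95.9 ± 0.456 CPM to 63.7 ± 1.62 CPM (log2 fold change -0.59, adjusted p = 0.00029 from edgeR). NCAPD3 (-0.47) and NCAPG2 (-0.44) did not pass the quasi-likelihood test, with adjusted p-values of 0.0013 and 0.0030 from edgeR. Of 9 SMC5/6 genes, 2 rose and 0 fell (4 lower at an unadjusted p under 0.05, 1 with the likelihood ratio test, 1 with DESeq2 and 0 with limma voom), with a median of -0.25. The genes that rose were EID3 (log2 fold change 1.93, adjusted p = 2e-04 from edgeR), with 18 and 18 fragments with DMSO and 70 and 60 with SGSS05-NS, and NSMCE3 (0.69, adjusted p = 0.00058 from edgeR). SLF1 had -0.51 (adjusted p = 0.0020 from edgeR). In 7 of the 8 condensin genes, the log2 fold change was below 0, against 49.0% of all genes tested. In 7 of the 8, both treated libraries were below both DMSO libraries, against 36.9% of all genes. Of the 9 SMC5/6 genes, 6 had a log2 fold change below 0, and 4 had both treated libraries below both DMSO libraries. Whether cohesin differed from these lists was not tested. With single libraries left out, the calls ranged from 1 to 3 lower for condensin (3 without SGSS05-NS replicate 1 and 2 without DMSO replicate 2), from 2 to 4 lower for the other cohesin genes (4 without SGSS05-NS replicate 1) and from 1 to 2 higher for SMC5/6 (NSMCE3 was lost without DMSO replicate 2 or SGSS05-NS replicate 2).

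The symbol STAG1 is shared with another gene, since RefSeq lists it as an older name of PMEPA1, a membrane protein gene of the TGF-beta pathway. The counts above were matched by gene identifier to the cohesin gene. PMEPA1 was at 18.8 and 21.1 CPM with DMSO and at 23.4 and 24.4 CPM with SGSS05-NS, and its log2 fold change of 0.26 ± 0.12 (SE, adjusted p = 0.087 by edgeR) was opposite in sign to that of STAG1.

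The libraries held between 21463105 and 25350204 fragments on genes. CDKN1A, the p21 gene and a target of p53, was at 17.4 ± 3.00 CPM with DMSO and at 447 ± 103 CPM with SGSS05-NS. Fragments not in an annotated exon of the counted strand made up 12.3% to 12.4% of the total with DMSO and 15.3% to 16.1% with SGSS05-NS. Of 6 markers of sympathoadrenal neuroblastoma cells, PHOX2A, HAND2, GATA3, ISL1 and DBH were detected, and TH had at most 2 fragments in any library. Their summed level was 1757 to 1838 CPM with DMSO and 1112 to 1298 CPM with SGSS05-NS. Of the 5 tested, 3 were called lower, against 8.14% of all genes tested. Of 7 markers of mesenchymal-type cells, PRRX1 had 0 fragments, and the summed level was 222 to 252 CPM with DMSO and 165 to 168 CPM with SGSS05-NS. This difference came mostly from TWIST1 (160 and 93.4 CPM on average), the only 1 of the 5 tested that was called. TWIST1 was called lower, as were 8.14% of all genes tested. Of the others tested, FN1 and YAP1 had log2 fold changes of -0.15 and -0.71, and SNAI2 and CD44 of 0.30 and 1.41. CD44 had at most 17 fragments in any library, and the median of the list was -0.15. The part of these shifts in the values of the cohesin genes was not tested.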

How the data were processed

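Total RNA of SY5Y cells was sequenced as paired reads, from TruSeq libraries (stranded, with rRNA removed, per the study's methods). The authors trimmed the reads with Trimmomatic 0.30, aligned them to hg19 (GRCh37) with STAR 2.4.2a and deposited its gene counts, not normalized, in 3 columns (unstranded, forward and reverse). The reverse column was used, as the forward column held 4.64% to 5.05% of the fragments counted in both. The 4 summary rows were left out. Fragments with several matches in the genome stay uncounted, so genes with near-identical copies can lose counts, which was not measured here.

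Low counts were filtered (filterByExpr) and the rest scaled by TMM in edgeR 4.0.16 (R 4.3.3). Treatment was the only term of the quasi-likelihood fit, and p-values were adjusted by Benjamini-Hochberg over 16468 genes, at the study's threshold of 0.001. The standard error is the log2 fold change divided by the square root of F. Replicates differed beyond counting error, with a chi-square of 8.76 (DMSO) and 11.8 (SGSS05-NS) per degree of freedom. With 2 libraries per treatment, the spread of a gene is largely estimated from other genes. Symbols, positions and lengths came from a later GENCODE release on GRCh37, matched by identifier for 55538 of 57820 genes. The release on which the authors counted was not used here. The canonical transcript is the MANE Select or Ensembl canonical one. The script was tested on simulated data with known changes. At the threshold used, 64.9% of simulated 2-fold changes and 93.8% of 4-fold changes were called. A gene that was not called can therefore still have changed.

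The members and lists were chosen with earlier results of these data known. Named are all members, the 3 genes of each other list with the smallest p-values and those whose role is described, the genes nearest in span to STAG1 and STAG2, PMEPA1 and CDKN1A. The results of 2 genes from these and the marker lists are not reported here. Alternatives were the likelihood ratio test, DESeq2 1.42.0, limma 3.58.1 voom, other scalings, filters, thresholds and lengths, unstranded counts, the replicate number as a block and each library left out.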

Additional observations from a re-analysis of the deposited data

Results flagged for a closer look

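Fragments antisense to RAD21, in the forward column that the comparisons do not use, were at 0.876 ± 0.0359 CPM (SD, n = 2) with SGSS05-NS and at 0.470 ± 0.181 CPM (SD, n = 2) with DMSO. This result was singled out because both treated libraries were above both controls and the antisense fragments of the 4 libraries added up to at least 40. The counts were 15 and 8 fragments with DMSO and 20 and 20 with SGSS05-NS, under 0.2% of the sense counts of RAD21 in each library, and the difference was not tested. The lncRNA RAD21-AS1 and the gene UTP23 lie on that strand.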

How the results depend on the processing

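The log2 fold changes of STAG1, STAG2, SMC1A, SMC3, NIPBL, WAPL, PDS5A and PDS5B were below 0 in all 13 alternative fits, that of RAD21 in 12 and that of ESCO1 in 10. The members called lower numbered 2 with library size only.

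The genes called in the whole table, 1049 higher and 1341 lower, were 2022 and 2267 with the likelihood ratio test, 2034 and 2570 with no filter on low counts, and 3728 and 3903 at an adjusted p under 0.05. With the replicate number as a block, 1759 were higher. Same-numbered libraries had a correlation of 0.053 between their deviations from the group means, so the numbers were not taken to pair the libraries. With the block, 5 members were called, 1 other cohesin gene was higher, 2 condensin genes and 1 SMC5/6 gene were lower.

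Other cohesin genes called higher, 0 as reported, numbered 1 with the likelihood ratio test, DESeq2 or no filter, and 5 at 0.05, with a range of 0 to 1 over single libraries left out. Called lower, 2 as reported, were 1 with library size only, 4 with no filter and 4 at 0.05 (2 to 4 with libraries left out). Condensin genes called lower, 1 as reported, were 4 with the likelihood ratio test, DESeq2 or no filter, 0 with library size only, 2 with unstranded counts and 5 at 0.05 (1 to 3 with libraries left out). SMC5/6 genes called lower, 0 as reported, were 1 with the likelihood ratio test, DESeq2 or no filter and 4 at 0.05 (0 to 2 with libraries left out), and those called higher, 2 as reported, ranged from 1 to 2.

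Spearman's rho with span over all genes, -0.22 as reported, was -0.10 with no filter, -0.28 with at least 10 counts in every library, -0.07 with the longest transcript, and between -0.22 and -0.18 with libraries left out. For the members it was -0.14 with the longest transcript and -0.71 with the span of the canonical transcript, a measure added after the data were seen. The share of STAG1 was 36.7% with DMSO and 25.7% with SGSS05-NS per longest transcript, 34.2% and 23.7% per canonical transcript, and 46.1% and 34.6% with unstranded counts. The causes of these shifts were not tested.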
